A study of Mus musculus with 18 samples.

Results

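The glutathione, thioredoxin and selenoprotein antioxidant genes were taken by gene symbol, together with the superoxide dismutases and the quinone reductase *Nqo1*. A symbol pattern applied to the protein-coding genes of the sheet that lists every tested gene found 69 rows of 16272 tested genes, of which 13561 were protein-coding. The rows carry 68 symbols, because *Txnl4a* stands in 2 rows. The symbol pattern uses no level or difference, but a gene had to pass the authors' filter on low CPM to be among the tested genes, and the pattern was chosen with earlier results of these data known. The genes come from bulk RNA seq of perigonadal white adipose tissue of young female C57BL/6J wild-type mice (C57b/6J in the labels), in 18 libraries of 3 groups with 6 libraries each. CON mice had food ad libitum, ABA mice (activity-based anorexia) were on scheduled feeding until they had lost a set share of their body weight, and WR mice (weight restored) went through the same feeding schedule and then ate ad libitum until their weight was regained. All 3 groups were housed singly with a running wheel. The value described is the authors' average of log2 CPM (each gene's read count scaled to the size of its library, on a log2 scale) over all 18 libraries, 1 value per gene. The average mixes the groups, so differences between CON, ABA and WR are not described, and no spread between mice, SD or interval stands beside a level. The authors' own comparisons of the groups were not used.

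Cells remove peroxides and other reactive molecules by a few linked systems. Superoxide dismutases turn superoxide into hydrogen peroxide, and glutathione peroxidases, peroxiredoxins and catalase then reduce it. The peroxidases draw their electrons from glutathione or thioredoxin, which glutathione reductase and the thioredoxin reductases recharge with NADPH, while glutathione transferases couple glutathione to electrophiles such as the aldehydes of oxidised lipids. Several of these enzymes carry selenocysteine, an amino acid that is inserted at a UGA codon, which otherwise ends translation. In adipose tissue this chemistry meets a large store of lipid, some of which can be peroxidised.

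The selenocysteine codons are shown first, because they tell the true selenoproteins apart from genes that only share a name with them. GENCODE M21, on the GRCm38 build that the authors also used, marks a selenocysteine in 17 of the 69 rows, and each mark fell on an in-frame TGA of the annotated coding sequence. The stretches are coding-strand DNA, read 5′ to 3′ from GENCODE M21 transcripts, with the TGA in capitals. They show the first selenocysteine codon of the 4 selenoproteins with the highest levels, of *Selenow*, which has the shortest coding sequence among them, and of the cytosolic thioredoxin reductase.
Selenop: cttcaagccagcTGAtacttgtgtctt
Gpx3: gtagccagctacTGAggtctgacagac
Gpx4: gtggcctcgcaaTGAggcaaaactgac
Gpx1: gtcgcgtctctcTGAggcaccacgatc
Selenow: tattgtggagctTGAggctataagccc
Txnrd1: cagtctggctgcTGAggt

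These codons lie at chr15:3274848-3274850 for *Selenop*, chr11:54907256-54907258 for *Gpx3*, chr10:80054737-80054739 for *Gpx4*, chr9:108339451-108339453 for *Gpx1* and chr10:82896037-82896039 for *Txnrd1*, all on the plus strand, and at chr7:15920464-15920466 on the minus strand for *Selenow*. A G followed the first TGA in 10 of the 17 genes, a C in 3, an A in 2 and a T in 2. *Selenop*, which encodes the plasma protein that carries selenium between tissues, was the 1 member with more than 1 selenocysteine. Its coding sequence of 380 codons holds 10 of them, the first at codon 59 and the last at codon 377. In the peroxidases the codon lies inside the protein, at codon 47 of 201 in *Gpx1*, 73 of 226 in *Gpx3* and 129 of 253 in *Gpx4* (counted on the annotated coding sequence that holds it, the longest one where several do). In 6 other genes, *Txnrd1*, *Txnrd2*, *Txnrd3*, *Selenos*, *Selenok* and *Selenoo*, at most 2 codons follow the selenocysteine codon. In the thioredoxin reductases the last pair of residues is thus selenocysteine and 1 more residue, the end that takes up the electrons for thioredoxin.

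**Figure D1:**
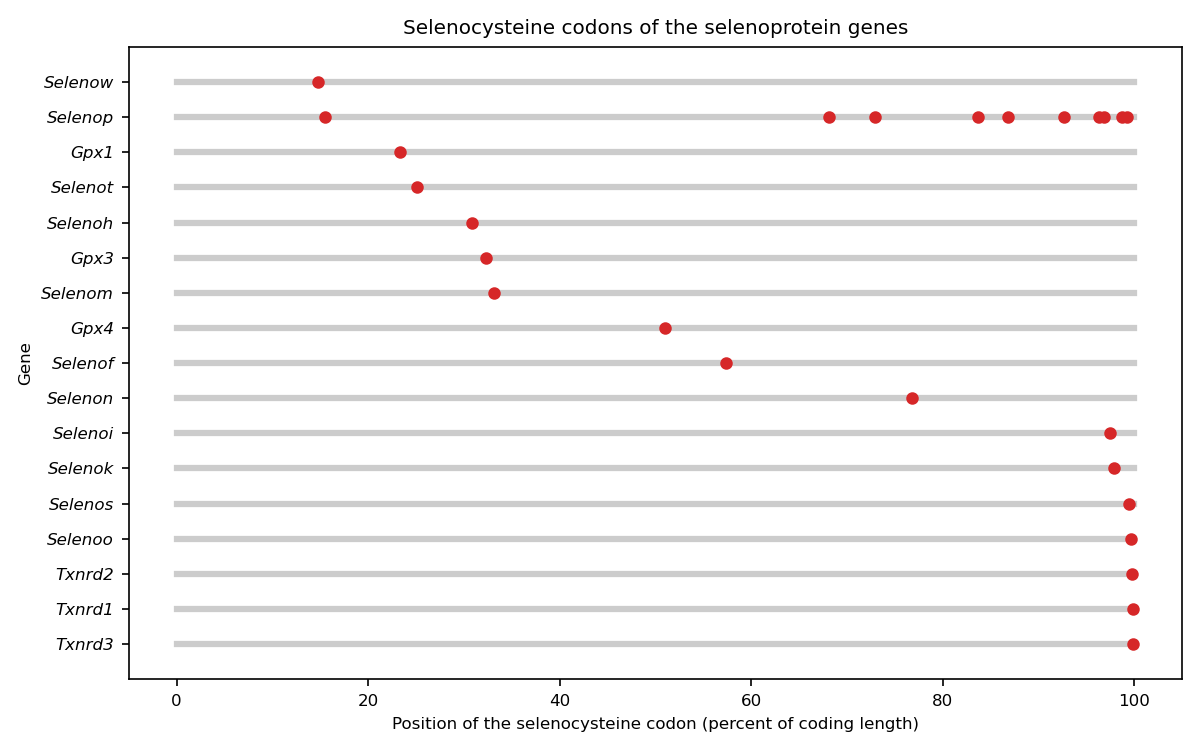
Position of each annotated selenocysteine codon along the coding sequence of 17 genes, in percent of the coding length (grey bars, from the start codon at the left to the last codon at the right; each point is 1 codon). *Selenop* has 10 points, the other genes have 1 each, and the 3 thioredoxin reductases have theirs at the far right end.

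*Gpx7* and *Gpx8*, the peroxidases of the endoplasmic reticulum, hold no selenocysteine. Aligned by translated coding sequence to *Gpx1* and to *Gpx4*, they have a cysteine codon at the place of the TGA, which is shown in capitals on the coding strand and 5′ to 3′.
Gpx7: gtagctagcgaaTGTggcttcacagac
Gpx8: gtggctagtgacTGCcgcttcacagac

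This is codon 56 of *Gpx7* (on chromosome 4) and codon 79 of *Gpx8* (on chromosome 13). Among the 12 rows whose symbol begins with Selen, *Selenbp1* is the exception. Its product binds selenium but the annotation gives it no selenocysteine.

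As a group the members stood in the upper part of the tested genes. Their median was 5.34 on the log2 CPM scale, a level at or above that of 73.8% of all tested genes, whose median was 3.83. Of the 69 rows, 18 were in the top 10% of tested genes and 11 were below the median of tested genes. The range ran from 0.21 for *Gsto2*, a transferase of the omega family, to 10.73 for *Selenop*. CPM grows with transcript length, and the members' transcripts are short, with a median of 1594 bases for the longest protein-coding transcript against 3196 bases over the tested genes that have one. Levels are therefore also given per kb of that transcript (average log2 CPM less log2 of the length in kb). The order of the members is read on that scale, which was chosen after the data had been seen. This order depends on the length used. *Selenop* has a longest coding sequence of 1140 bases and a longest transcript of 2085, and *Gpx3* has 678 and 1594. Per kb of coding length, only the median and the count in the top 10% are given, further below. Ranks per kb of transcript, here and below, are among the 13546 tested genes with a length, 13508 of them protein-coding. The members' median per kb of transcript was 4.64, at or above 85.7% of these genes, and 29 of the 69 rows were in the top 10%. By CPM, the background nearer to this one is the protein-coding genes. Against them the median stood at 69.0% and 17 rows were in the top 10%. A count of 10 members in the top 1% per kb stands beside 4 in the top 1% by CPM. The 3 highest members per kb, *Selenop*, *Gpx3* and *Mgst1*, carried 33.2% of the level per kb summed over all 69 rows, when each average was taken off the log scale.

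**Figure D2:**
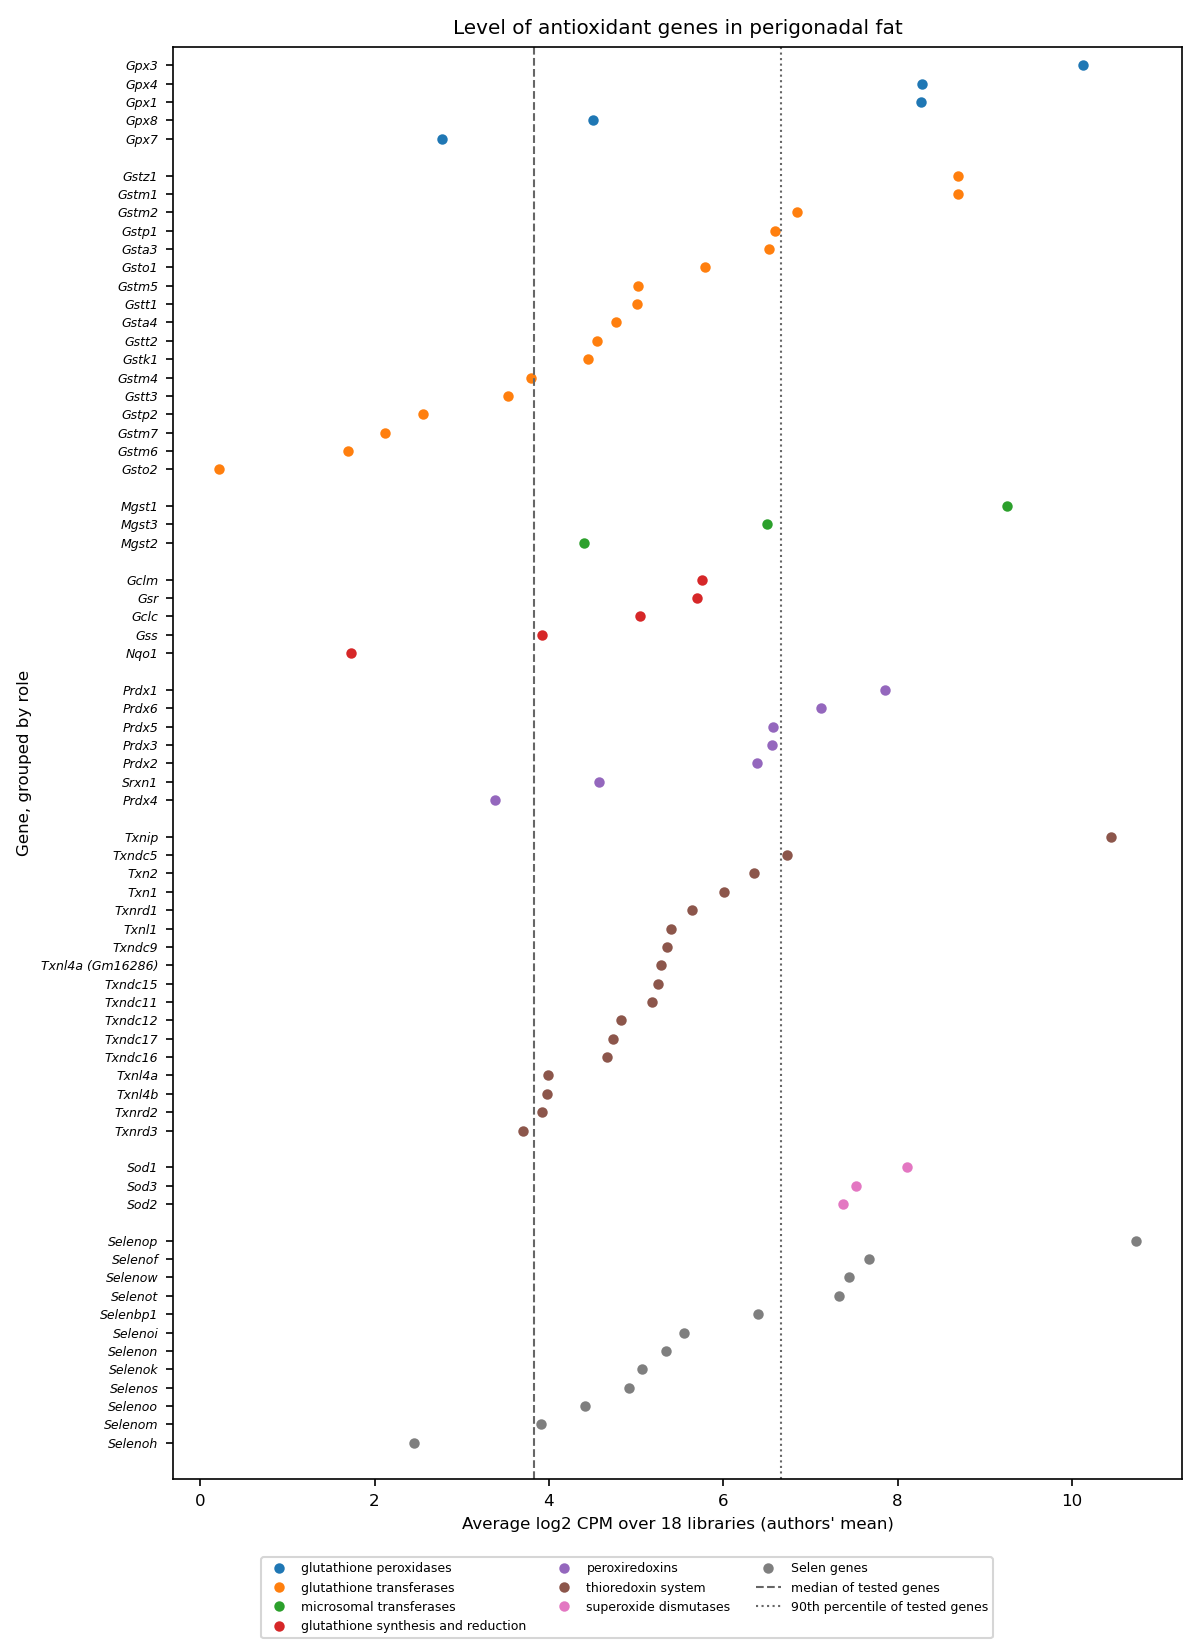
Average log2 CPM over all 18 libraries (horizontal axis, the authors' mean with no error available) for each of the 69 rows, listed by role. The dashed line is the median of all tested genes (3.83) and the dotted line their 90th percentile (6.66), and all 3 superoxide dismutases lie to the right of the dotted line.

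Among the superoxide dismutases, the cytosolic copper and zinc enzyme *Sod1* averaged 8.11 log2 CPM, the secreted enzyme *Sod3* 7.52 and the mitochondrial manganese enzyme *Sod2* 7.37. Each was in the top 10% of tested genes. Per kb of transcript the distance between them was wider, with 8.75 for *Sod1*, 5.62 for *Sod3* and 4.82 for *Sod2* on the log2 scale, because the longest transcript of *Sod1* has 641 bases and that of *Sod2* 5861. The per-kb level of *Sod1* had place 5 among the members and that of *Sod2* was outside the top 10% of tested genes. The longest coding sequences were closer in length, with 462 bases for *Sod1*, 753 for *Sod3* and 666 for *Sod2*. The distances and places per kb thus depend on the length used.

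The glutathione peroxidases divided into a high and a low set. *Gpx3*, which is secreted and is the main glutathione peroxidase of plasma (chr11:54902453-54910377), averaged 10.13 log2 CPM, at or above 99.6% of tested genes. *Gpx4*, which reduces lipid hydroperoxides in membranes and protects from ferroptosis, averaged 8.28, and the cytosolic *Gpx1* averaged 8.27. Per kb these 3 were at 9.45, 8.29 and 8.17 on the log2 scale. *Gpx8* averaged 4.51 log2 CPM (4.45 per kb) and *Gpx7* 2.77 (2.40 per kb). Among the 5 tested peroxidases, those with selenocysteine were thus the high set, and those with a cysteine codon in its place were the low one. This split does not cover the peroxidases that were not among the tested genes. *Gpx2*, *Gpx5* and *Gpx6*, known from gut, epididymis and olfactory epithelium, match the pattern in the annotation and were not among the tested genes. The other symbols of the pattern that the annotation holds and the table does not are *Gsta1*, *Gsta2*, *Gstm3*, *Gstp3*, *Gstt4*, *Selenbp2*, *Selenov*, *Txndc2* and *Txndc8*, which makes 12 of 80 annotated genes.

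The peroxiredoxins reduce peroxides with a cysteine and pass the electrons on mostly from thioredoxin. *Prdx1*, a cytosolic member, averaged 7.86 log2 CPM (6.66 per kb) and *Prdx6*, which also has phospholipase activity, 7.12 (5.87 per kb). The mitochondrial *Prdx3* averaged 6.55 (5.99 per kb), *Prdx5* 6.57 (6.24 per kb) and *Prdx2* 6.39 (5.70 per kb). These 5 genes lay within 1 log2 unit of each other per kb, and all 5 were in the top 10% of tested genes on that scale. *Prdx4*, the peroxiredoxin of the endoplasmic reticulum, averaged 3.39 (3.40 per kb), and *Srxn1* (sulfiredoxin), which repairs overoxidised peroxiredoxins, averaged 4.57 (3.08 per kb).

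Of the thioredoxin system, *Txnip* had by far the highest level. Its product is an arrestin-like protein that binds thioredoxin and limits glucose uptake, and it averaged 10.45 log2 CPM and 8.95 per kb. Thioredoxin itself was lower, with 6.01 log2 CPM for the cytosolic *Txn1* (5.94 per kb) and 6.35 for the mitochondrial *Txn2* (5.31 per kb). The reductases that recharge thioredoxin were lower again. The cytosolic *Txnrd1* averaged 5.64 log2 CPM (3.79 per kb), the mitochondrial *Txnrd2* 3.93 (2.40 per kb) and *Txnrd3*, known from testis, 3.71 (2.20 per kb). Per kb, *Txnrd2* and *Txnrd3* were below the median of tested genes (2.70). The proteins with a thioredoxin domain named *Txndc* ran from 2.33 per kb for *Txndc16* to 5.22 for *Txndc5*, a protein disulfide isomerase of the endoplasmic reticulum. The others were *Txndc17* at 4.77, *Txndc15* at 4.64, *Txndc12* at 4.38, *Txndc9* at 3.56 and *Txndc11* at 3.09 per kb. *Txnl1*, a thioredoxin-like protein bound to the proteasome, averaged 3.28 per kb. *Txnl4a* and *Txnl4b* have a thioredoxin fold but belong to the splicing machinery, and *Txnl4b* averaged 3.06 per kb. The *Txnl4a* symbol stands on ENSMUSG00000057130 (3.99 log2 CPM) and on ENSMUSG00000024571 (5.29 log2 CPM), which GENCODE M21 names *Gm16286*. Both lie on the same strand of chromosome 18 and overlap, so how their reads were divided is uncertain.

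The enzymes that make and recharge glutathione were at moderate levels. *Gclc* and *Gclm* encode the catalytic and the modifier subunit of glutamate-cysteine ligase, which makes the first bond of glutathione. They averaged 5.04 and 5.75 log2 CPM, and 3.27 each per kb. The equal values per kb depend on the length used. The longest transcript has 3423 bases for *Gclc* and 5589 for *Gclm*, and the longest coding sequence 1911 and 822. Glutathione synthetase (*Gss*), the next step, averaged 3.92 (2.94 per kb), and glutathione reductase (*Gsr*) 5.70 (4.28 per kb). None of these was in the top 10% of tested genes on either scale. *Nqo1*, which reduces quinones and is widely used as a reporter of the transcription factor NRF2, averaged 1.73 log2 CPM (1.10 per kb), at or above 23.9% of tested genes. Only *Gsto2* was lower than *Nqo1* per kb among the members.

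**Figure D3:**
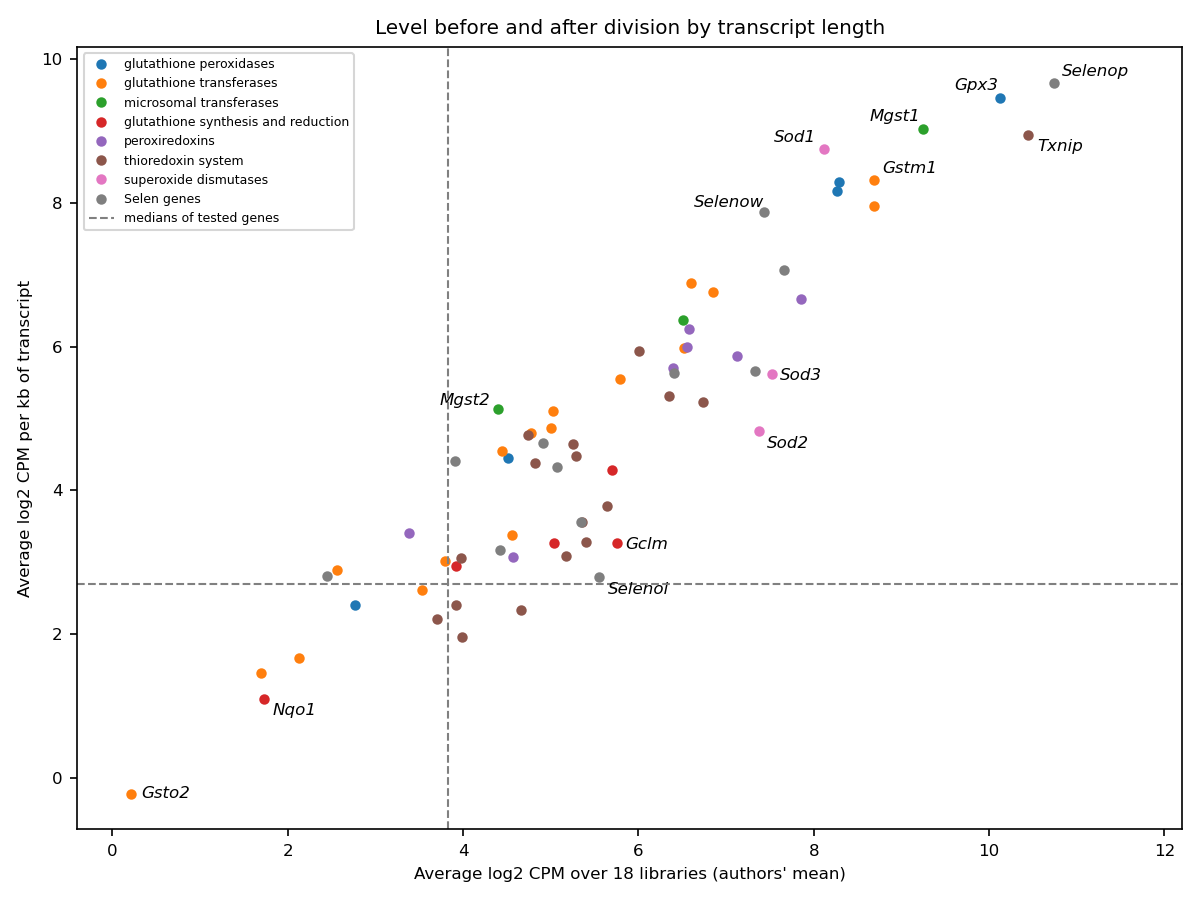
Average log2 CPM over all 18 libraries (horizontal axis) against the same average per kb of the longest protein-coding transcript (vertical axis, log2 scale), 1 point per row, coloured by role. Dashed lines are the medians of tested genes (3.83 and 2.70). *Sod1* and *Mgst2* lie high for their CPM, *Sod2* and *Selenoi* lie low.

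The 17 cytosolic, mitochondrial and peroxisomal glutathione transferases had the widest range of any role, from 0.21 to 8.69 log2 CPM and from -0.22 to 8.32 per kb. The 2 highest belong to different families. *Gstz1*, which is also maleylacetoacetate isomerase of tyrosine breakdown, averaged 8.69 log2 CPM (7.96 per kb), and *Gstm1*, of the mu family, averaged 8.69 (8.32 per kb). *Gstp1* averaged 6.60 (6.88 per kb), *Gstm2* 6.85 (6.76 per kb), *Gsta3* 6.52 (5.98 per kb) and *Gsto1*, which also reduces dehydroascorbate, 5.79 (5.55 per kb). *Gsta4*, which is known for conjugating 4-hydroxynonenal, an aldehyde of lipid peroxidation, averaged 4.77 (4.80 per kb). The theta genes *Gstt1*, *Gstt2* and *Gstt3* averaged 4.86, 3.38 and 2.62 per kb, and *Gstk1*, of mitochondria and peroxisomes, 4.55 per kb.

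The mu genes stand side by side, and their levels differed widely. The 6 tested ones lie within 149 kb at chr3:107895821-108044894. Their averages were 8.32 per kb for *Gstm1*, 6.76 for *Gstm2*, 5.11 for *Gstm5*, 3.02 for *Gstm4*, 1.66 for *Gstm7* and 1.46 for *Gstm6*. The coding sequences of these 6 genes were 68.4% to 85.9% identical in the 15 pairs. In the pi family, *Gstp1* (chr19:4035407-4037985) and *Gstp2* (chr19:4040285-4046023) were 98.1% identical over 630 coding bases. *Gstp2* averaged 2.56 log2 CPM (2.89 per kb). RSEM divides reads that fit both copies by estimate, so the level of *Gstp2* in particular is uncertain. Other levels are uncertain because genes overlap. In the annotation 29 of the 69 rows overlap another gene, 21 of them a protein-coding one. *Selenop* overlaps *Ccdc152*, *Sod1* overlaps *Scaf4*, *Gstz1* overlaps *Pomt2*, *Gpx8* overlaps *Cdc20b*, *Gss* overlaps *Acss2*, and *Gsto1* and *Gsto2* both overlap *Cfap43*, each on the opposite strand. On the same strand, *Selenoh* overlaps *Gm28635*, *Gstt3* overlaps *Gm20441*, *Txnrd1* overlaps *Eid3* and *Txndc12* overlaps *Kti12*. Counting by strand would not separate the reads of these same-strand pairs. Whether the counting used strand is not given in the sources used here. No pair in the other transferase and antioxidant families compared was more than 76.2% identical.

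The microsomal transferases are membrane proteins of a separate fold. *Mgst1*, which also has glutathione peroxidase activity, averaged 9.25 log2 CPM (9.03 per kb), the third highest level per kb of transcript among the members. *Mgst3* averaged 6.50 (6.37 per kb) and *Mgst2*, which can make leukotriene C4, 4.40 (5.13 per kb). All 3 were in the top 10% of tested genes per kb, and 1 of them by CPM.

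Among the selenoproteins with Selen symbols, *Selenop* (chr15:3268547-3280508) averaged 10.73 log2 CPM and 9.67 per kb. It was the highest member by CPM and per kb of transcript, and at or above 99.7% of tested genes by CPM. *Selenow*, a small thioredoxin-like protein of the cytosol, averaged 7.44 (7.88 per kb), and *Selenof*, a thioredoxin-like protein of the endoplasmic reticulum, 7.67 (7.07 per kb). *Selenot*, also of the endoplasmic reticulum, averaged 7.32 (5.67 per kb). *Selenos* and *Selenok*, which take part in the disposal of misfolded proteins from the endoplasmic reticulum, averaged 4.92 and 5.07 (4.66 and 4.32 per kb). *Selenon*, mutated in human muscle disease, averaged 5.34 (3.56 per kb), *Selenoo*, a mitochondrial AMPylating enzyme, 4.42 (3.17 per kb), and *Selenoi*, an ethanolamine phosphotransferase of phospholipid synthesis, 5.55 (2.79 per kb). *Selenom*, of the endoplasmic reticulum, averaged 3.90 (4.40 per kb) and the nucleolar *Selenoh* 2.45 (2.80 per kb). *Selenbp1*, with no selenocysteine, averaged 6.40 (5.63 per kb). The 17 rows with a selenocysteine held 43.4% of the summed level per kb. Their median per kb was 4.40, against 4.70 for the 52 rows without one, so the large share lies in a few genes of very high level.

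Genes that serve these enzymes, from a list of 40 chosen beside the members, were listed for 36. The suppliers of NADPH were high. Malic enzyme *Me1* averaged 8.82 per kb, *Pgd* 7.47, *G6pdx* 7.00 and *Idh1* 6.92, each in the top 10% of tested genes. Catalase (*Cat*), the peroxisomal enzyme that removes hydrogen peroxide, averaged 10.32 log2 CPM (8.94 per kb). *Nfe2l2*, which encodes NRF2, averaged 6.39 log2 CPM (5.08 per kb), and *Keap1*, its repressor, 5.41 (3.55 per kb). *Slc7a11*, the cystine carrier, averaged -0.48 log2 CPM (-3.68 per kb), at or above 0.989% of tested genes, while its partner *Slc3a2*, which also serves other amino acid carriers, averaged 6.50 (5.01 per kb). *Lrp8*, a receptor for the product of *Selenop*, averaged 0.10 log2 CPM (-2.63 per kb). Of the genes that make or insert selenocysteine, *Sephs2*, itself a selenoprotein, averaged 5.14 per kb, *Pstk* 3.28, *Sepsecs* 2.81, *Secisbp2* 2.41 and *Eefsec* 2.16. The selenoprotein *Msrb1*, a methionine sulfoxide reductase, averaged 5.86 per kb. The selenoprotein *Dio2* was far lower, at 2.79 log2 CPM (0.25 per kb). *Ggt1*, *Ggt7*, *Dio1* and *Dio3* were the 4 genes of this list that were not among the tested genes.

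The antioxidant response element, the site that NRF2 and its partners bind, was searched in the promoters by its core TGACNNNGC on both strands. The windows are the RefSeq ones of GRCm38.p6, 250 bases before to 50 after each annotated start, and a gene counts if any of its windows holds the motif. Of the 69 rows, 60 had a promoter in the table, and 12 of these (20.0%) held the core, against 14.0% of all 27025 genes with a promoter. Among the promoters of tested protein-coding genes, the set most like the members, the share was 16.8%. The longer motif, the core followed by an A, was in 2 of the 60 (3.33%), against 3.45% of all genes. The 12 genes were *Gsta3*, *Gstm5*, *Gstm7*, *Mgst1*, *Gclm*, *Prdx1*, *Srxn1*, *Txnrd1*, *Txndc5*, *Txndc11*, *Selenok* and *Sod1*. Their averages ran from 1.66 per kb (*Gstm7*) to 9.03 (*Mgst1*). The window of *Nqo1* held no match, which says only that these letters are not in that window. *Gclc*, *Gsr*, *Prdx6*, *Gsta4*, *Gstt2*, *Sod3*, *Txnl1* and the rows of *Txnl4a* had no promoter window and were not searched. The promoters of the members had a median GC content of 58.3%, against 52.7% for all genes. Matches of the genes known for NRF2 control, and of *Gsta3*, 1 of the 2 with the longer motif, are shown 5′ to 3′ on the strand on which the motif reads, with the core in capitals.
Prdx1: tacgggggaTGACTCAGCgctttccct
Srxn1: gtctcactcTGACCTAGCtgcccactg
Gclm: cgtgagagtTGACGGTGCgcccgggag
Txnrd1: gtgtcagaaTGACAAAGCaaaaatcca
Gsta3: actcaggcaTGACATTGCatttttctt

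They lie at chr4:116685457-116685483 for *Prdx1*, chr2:152105543-152105569 for *Srxn1*, chr3:122245414-122245440 for *Gclm* and chr10:82859105-82859131 for *Txnrd1*, all printed from the minus strand, and at chr1:21240455-21240481 on the plus strand for *Gsta3*. Measured from the middle base of the core to the RefSeq start whose window holds it, the *Prdx1* match lies at -129 bases, that of *Gclm* at -130, *Gsta3* at -117 and *Txnrd1* at -88. The start used for *Txnrd1* is an internal one, since the match lies inside the gene as GENCODE M21 annotates it (chr10:82833951-82897712). The match of *Srxn1* lies 32 bases after its start. A match is a description of the sequence, and binding was not measured.

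The tissue label was checked by the presence of marker genes, whose levels are on the log2 CPM scale and are not compared with each other. All 6 adipocyte markers were listed, with *Fabp4* at 12.36 and *Adipoq* at 10.86 log2 CPM. Markers of other cells of the fat pad were present as well, with medians of 7.21 for 5 fibroblast and progenitor genes, 7.17 for 3 endothelial, 5.78 for 4 macrophage, 5.75 for 4 mesothelial and 0.65 for 3 lymphocyte genes. Of markers of neighbouring or distant tissues, 2 of 4 for ovary and oviduct were listed (*Star* at 3.70 and *Ovgp1* at 0.30). None of 4 for epididymis and testis was listed, which cannot check the dissection because all the mice were female. Also listed were 2 of 3 for liver (*Alb* at 5.13 and *Apoa1* at -0.30), and 3 of 3 for skeletal muscle (*Acta1* at 5.04, *Myh4* and *Ckm* at 2.15 each). The levels of the members are thus those of a mixture of cells, and which cells hold which transcript was not tested. In bulk tissue, more cells of a type and more RNA per cell cannot be told apart.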

How the data were processed

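Perigonadal adipose RNA of 18 mice was sequenced from TruSeq libraries. According to the submitters' processing notes and the study's methods, trimming was done by Trimmomatic 0.38, alignment to the GRCm38.p6 build by STAR 2.5.1a, and gene counting by RSEM 1.3.0 against Ensembl release 98. A gene was tested where 5 or more samples reached a CPM of 1. Library sizes were scaled by the TMM method, and limma with voom weights was used for the model. The deposited average log2 CPM of each gene is the authors' mean over all 18 libraries, and it was identical in all 5 sheets. The sheets also hold the authors' own comparisons of the groups (log2 fold changes, moderated t, p and adjusted p), which were not used. No values per library were used, so depth per sample, replicate error and tests between groups were not analysed here. The strand setting of the counting is not given in the sources used here. Of the members, 23 overlap an annotated gene on the opposite strand and 9 one on the same strand, and their reads may be shared.

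Members were matched by symbol, and positions, transcript and coding lengths and selenocysteine marks came from GENCODE M21 by Ensembl identifier (69 of 69 matched). The length used is that of the longest protein-coding transcript. Identity was computed over the longer coding sequence of a pair with Biopython 1.88 (match 2, mismatch penalty 3, gap penalties 5 and 2). Translations were aligned with BLOSUM 62 (gap penalties 11 and 1), with the selenocysteine codon read as cysteine. Percentiles are the share of tested genes at or below a level, and per kb those among the 13546 genes with a length. The members and lists were chosen with earlier results of these data known. Given in full are, for each role, the highest and lowest members and those next in order, the members with a selenocysteine, and those with the motif, with selenocysteine taken from GENCODE M21 in place of RefSeq proteins. The functions were tested on simulated data. Ranks against protein-coding genes, scaling by coding length, a filter on low values and a longer motif were tried as alternatives. Scaling by transcript length was added after the data had been seen.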

Additional observations from a re-analysis of the deposited data

How the results depend on the processing

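The members' median stood at the 73.8th percentile of all tested genes by average log2 CPM. It stood at the 69.0th against protein-coding genes alone, and at the 73.9th without *Txnl4a*, *Txnl4b* and *Selenbp1*. Per kb of coding length it stood at the 82.9th among genes with a RefSeq protein. Per kb of transcript length (chosen after seeing the data) it stood at the 85.7th among genes with such a length. With no replicate spread, none of these moves can be set against an error. The count in the top 10% was 18, 17 against protein-coding genes, 18 among genes with an average of at least 0, 26 per kb of coding length and 29 per kb of transcript length. The count of promoters with the motif was 12 with the core, against 14.0% of all promoters or 16.8% of those of tested protein-coding genes, and 2 with the longer motif.

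No paired analysis was possible because the values used are averages over all libraries. No alternative leaving out a library was run, for the same reason. Lengths are those of 1 annotated transcript per gene, and which transcripts the tissue uses was not tested.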
